A study of Mus musculus with 12 samples.

Results

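The Hedgehog pathway was described through 9 of its genes, the ligand Shh, the receptors Ptch1 and Smo, the inhibitor Hhip, the co-receptors Boc and Cdon, and the transcription factors Gli1, Gli2 and Gli3. They were chosen by symbol, and each of the 9 had a row among the 24421 gene symbols of the deposited count table. All 9 were expressed well above the filter on low counts, with between 113 counts (Hhip) and 7825 counts (Gli3) in a library, and all 9 were tested.

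RNA was sequenced from C57Bl/6 mouse embryos carrying an alteration of Eftud2, which encodes a spliceosomal GTPase, that the labels describe as specific to neural crest cells. The 12 libraries formed 4 groups of 3: heterozygous (Eftud2+/-, the controls) and homozygous mutant (Eftud2-/-) embryos at embryonic day 9.0 (E9.0), and the same genotypes at E9.5. All groups carried at least 1 altered Eftud2 allele, since the controls were heterozygous and no wild-type library was among those analysed. The embryos were untreated. How the allele was made specific to these cells, the somite counts and how many embryos went into a library are not given in the sources used here. P-values therefore measure the spread between libraries, which may be technical in part.

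Sonic hedgehog is a secreted morphogen. In the head of the early embryo it is made by the ventral midline of the brain, the notochord and prechordal tissue and the pharyngeal endoderm, and it patterns the ventral brain and keeps facial mesenchyme alive and growing. Without ligand, Ptch1 holds the transmembrane protein Smo inactive, and Gli3 and Gli2 are processed towards repressors. Binding of Shh to Ptch1 together with Boc, Cdon or Gas1 releases Smo, and Gli2 and Gli3 then act as activators. Gli1, Ptch1 and Hhip are switched on by this signal and serve as its common readouts, whereas Boc, Cdon and Gas1 are known to be turned down by it.

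The libraries held 13914543 to 31172708 counts each. The ribosomal RNA precursor Rn45s took 4.40% to 37.4% of them, the highest share being in heterozygous E9.0 replicate 1, whose scaling factor was the lowest at 0.664. Eftud2 stood at 275 to 302 CPM (counts per 1000000 of the scaled library size) in heterozygous and 232 to 236 CPM in homozygous libraries at E9.0, and at 248 to 264 and 221 to 226 CPM at E9.5. It was lower in homozygous libraries without overlap at both stages, by 0.29 ± 0.05 on the log2 scale at E9.0 (edgeR, adjusted p 0.0193), with −0.19 ± 0.05 at E9.5 (adjusted p 0.0906; 0.202 without heterozygous E9.5 replicate 2). Of 11 processing alternatives 1, DESeq2, called the E9.5 difference (−0.19, DESeq2 adjusted p 0.0134). The E9.0 call was lost without heterozygous replicate 1 or homozygous replicate 1 or 3 (highest adjusted p 0.0713), in a fit of only the groups compared (0.141) and with total counts only (−0.08, adjusted p 0.751). The labels give neural crest as the source and cranial nerve ganglia as the tissue, while the protocol speaks of whole heads. Every library held RNA of several tissues: the summed level of 8 migrating crest markers was 168 to 334 CPM, that of 8 markers of cranial ganglia and placodes 89.2 to 132 CPM, that of 7 neural progenitor markers 641 to 832 CPM, and that of 10 endoderm and epithelium markers 316 to 475 CPM. Of 4 notochord markers, Noto was at 0 to 2 counts in each library. In such bulk libraries fewer cells of a type and less RNA per cell cannot be told apart.

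A single library stood apart in the pathway. In heterozygous E9.5 replicate 2, Shh was at 4.84 CPM against 16.8 and 19.6 CPM in the other libraries of its group, 0.266 times their mean. The lowest level of Shh, Ptch1, Gli1, Hhip and Smo over all 12 libraries was in this library, and so was the highest level of Boc and Cdon. Relative to the mean of its group mates, Ptch1 was at 0.729 times, Gli1 at 0.754 times and Hhip at 0.708 times, while Boc was at 1.49 times, Gli3 at 1.36 times and Cdon at 1.23 times. Ptch1, Gli1 and Hhip were thus low, and Boc, Cdon and Gli3 high, in the library with the least Shh, while the co-receptor Gas1 was at 1.04 times its mates and the 4 growth targets were at 1.02 to 1.13 times. Genotype differences of the 9 genes at E9.5 are therefore given with and without it, and other differences that involve it where leaving it out changes the call or moves the value by over 1.5 times.

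Other genes moved in the same library. All 6 facial mesenchyme targets of the pathway were below the mean of its mates, from 0.241 times (Foxf1) to 0.589 times (Foxc2). Of 8 ventral neural tube targets 7 were below it, the lowest being Nkx2-1 at 0.450 times, and Nkx6-2 was above it at 1.46 times. Of 9 dorsal neural tube genes 7 were above it, up to Lmx1a at 1.60 times, and Msx1 and Msx2 were below it at 0.898 and 0.886 times. The summed level of 15 facial ectomesenchyme markers was 299 CPM against 472 and 451 CPM in its mates, that of 8 endothelial markers 148 CPM against 204 and 214 CPM, and that of 8 midbrain-hindbrain boundary markers 109 CPM against 56.8 and 66.7 CPM. Neural crest markers were at 168 CPM against 203 and 207 CPM. The 6 ventral midline and floor plate markers were at 113 CPM in sum against 134 and 146 CPM. Notochord markers were at 10.5 CPM against 8.99 and 10.2 CPM. Neural progenitor markers were at 832 CPM against 670 and 762 CPM, and heart muscle markers at 2542 CPM against 1883 and 1943 CPM. Trunk markers were at 22.4 CPM against 39.6 and 27.6 CPM, and primitive erythroid markers at 5045 CPM against 5187 and 3958 CPM. Cranial ganglion and placode markers were at 116 CPM against 116 and 118 CPM, and ventral forebrain and eye markers at 47.1 CPM against 45.7 and 51.9 CPM. The 10 endoderm and epithelium markers were at 357 CPM against 367 and 316 CPM. Among these, Pax1 was at 0.360 times and Cdh1 at 1.23 times the mean of the mates. The part of these tissues in the level of Shh was not tested.

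**Figure D1:**
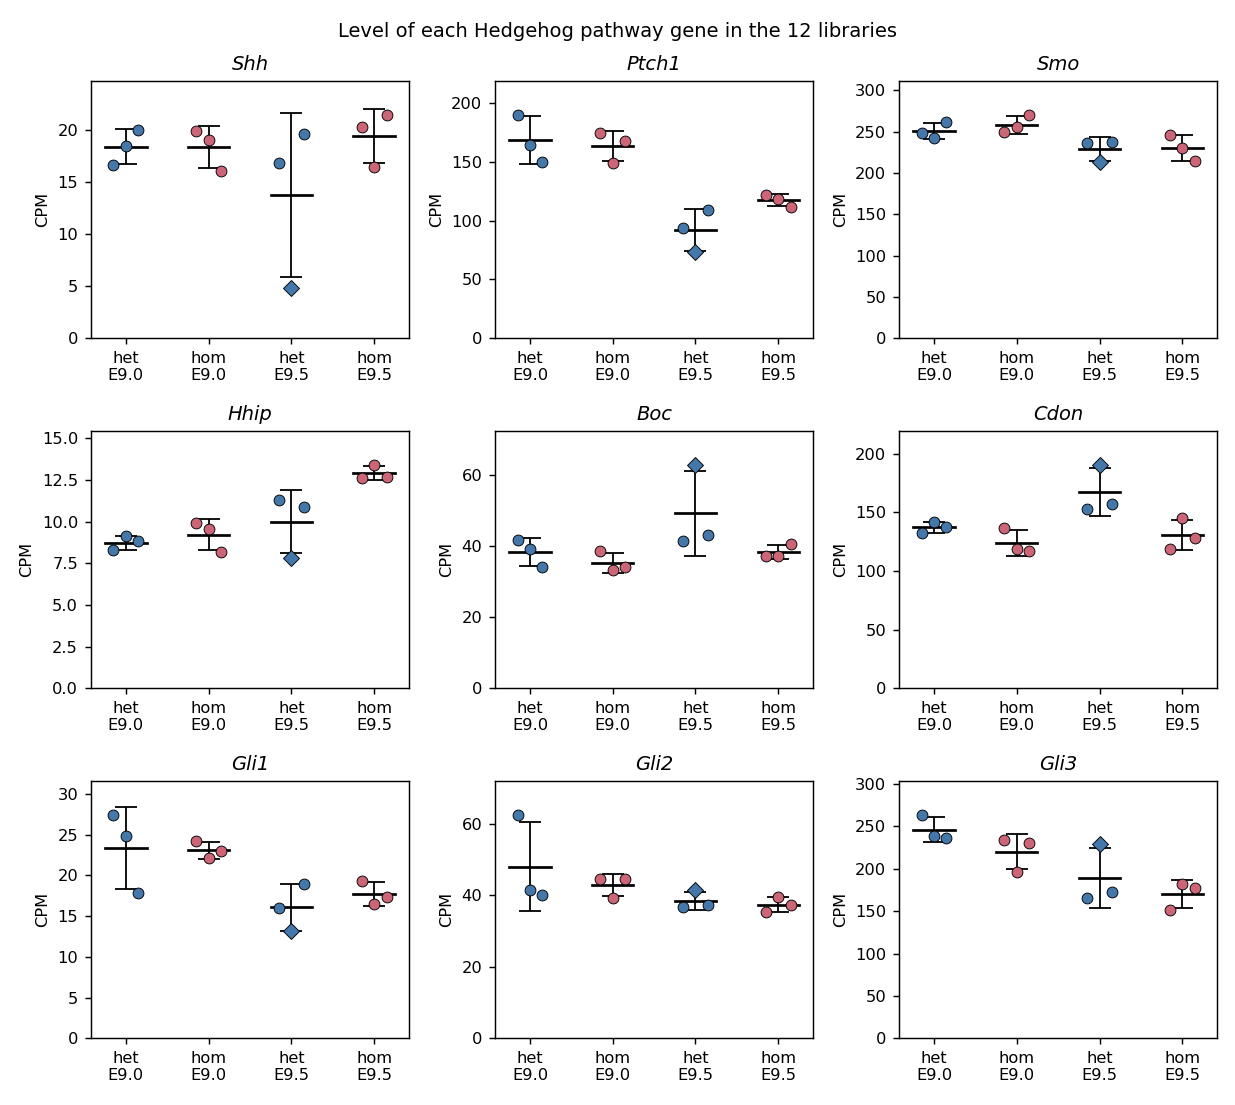
Level of each gene in CPM (y axis, from 0) in the 3 libraries of each group (x axis; het, heterozygous, blue; hom, homozygous, red), with the mean as a line and the SD as bars. The diamond is heterozygous E9.5 replicate 2, where Shh was at 4.84 CPM while the other 11 libraries lay between 16.1 and 21.5 CPM.

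Per kilobase of annotated exons, Smo had the highest level of the 9 genes and Hhip the lowest in all 4 groups. In heterozygous E9.0 embryos, Smo was at 44.6 ± 1.77 CPM per kilobase (SD, n = 3), followed by Gli3 at 25.7 ± 1.57, Cdon at 17.8 ± 0.586, Ptch1 at 11.9 ± 1.43, Boc at 8.63 ± 0.861, Gli2 at 6.99 ± 1.82, Shh at 6.45 ± 0.593, Gli1 at 4.68 ± 1.0 and Hhip at 0.963 ± 0.0458 CPM per kilobase. The neighbours Boc and Gli2, and Gli2 and Shh, lay within their spread, whereas the steps from Smo to Gli3 to Cdon to Ptch1 were each larger than the SDs. Receptor, co-receptor and Gli3 transcripts were thus more abundant than those of the ligand. In homozygous E9.5 embryos the order was the same for the first 3 genes, with Smo at 41.0 ± 2.78, Gli3 at 17.7 ± 1.70 and Cdon at 16.9 ± 1.71 CPM per kilobase, where Gli3 and Cdon no longer differed beyond their SD. In heterozygous E9.5 embryos Cdon stood above Gli3, at 21.6 ± 2.66 against 19.7 ± 3.65 CPM per kilobase, also within their SD.

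Shh, the ligand, lies at chr5:28456815-28467256 on the minus strand of GRCm38. At E9.0 it was at 16.7, 18.4 and 20.03 CPM in heterozygous and 19.9, 19.1 and 16.1 CPM in homozygous libraries. The ranges overlapped almost entirely, and homozygous minus heterozygous was −0.01 ± 0.42 in log2 (SE; edgeR adjusted p 0.996). This SE carries the spread of heterozygous E9.5 replicate 2, because all 12 libraries share 1 estimate; without that library the 95% interval of the difference was −0.27 to 0.25. At E9.5 Shh was at 16.8, 4.84 and 19.6 CPM in heterozygous and 20.3, 16.5 and 21.5 CPM in homozygous libraries. The ranges again overlapped, and the fitted difference was 0.50 ± 0.40 (edgeR adjusted p 0.692). Without replicate 2 it was 0.09 ± 0.12 (edgeR adjusted p 0.912), with a 95% interval of −0.17 to 0.36, so that no change of Shh was detected at either stage. The antisense gene 9530036O11Rik, which overlaps Shh, had 0 to 5 counts.

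Ptch1, the receptor of the ligand and a target of the pathway, lies at chr13:63508328-63573598 on the minus strand. At E9.0 its level was 190, 165 and 150 CPM in heterozygous and 174, 149 and 167 CPM in homozygous libraries. These overlapped and differed by −0.04 ± 0.12 in log2 (edgeR adjusted p 0.917). At E9.5 it was at 93.6, 73.7 and 109 CPM in heterozygous and 122, 118 and 112 CPM in homozygous libraries. All 3 homozygous libraries lay above all 3 heterozygous ones (exact two-sided permutation p 0.1, the smallest that 3 against 3 allows), but the log2 fold change of 0.35 ± 0.12 did not pass the threshold over all genes (edgeR adjusted p 0.199). Without heterozygous replicate 2 the difference was 0.22 ± 0.10 (edgeR adjusted p 0.439), and without heterozygous replicate 3 it was 0.49 and was called (edgeR adjusted p 0.0384). Its genotype difference at E9.5 exceeded that at E9.0 by 0.39 ± 0.17, which was not called (edgeR adjusted p 0.548), and by 0.26 ± 0.13 without heterozygous E9.5 replicate 2 (edgeR adjusted p 0.617). Ptch1 was the 1 gene of the 9 whose unadjusted p for this difference was under 0.05 (0.0390), against 8.6% of all tested genes.

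Hhip, a membrane protein that binds and sequesters Hedgehog ligands and is itself a target, lies at chr8:79965851-80058006 on the minus strand. At E9.0 it was at 8.29, 9.11 and 8.81 CPM in heterozygous and 9.92, 9.56 and 8.17 CPM in homozygous libraries, which overlapped (log2 fold change 0.07 ± 0.14, edgeR adjusted p 0.862). At E9.5 it was at 11.3, 7.83 and 10.9 CPM in heterozygous and 12.6, 13.4 and 12.7 CPM in homozygous libraries. The homozygous libraries were again all higher, by 0.37 ± 0.12 in log2 (edgeR adjusted p 0.155; exact permutation p 0.1). Without heterozygous replicate 2 the difference was 0.22 ± 0.10 (edgeR adjusted p 0.468). Ptch1 and Hhip thus had values of the same sign and similar size at E9.5, and neither passed the test.

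Because Ptch1 and Hhip are direct targets of the Gli factors and had like differences at E9.5, the RefSeq promoter windows of the members (GRCm38.p6, 250 bases before to 50 after an annotated start) were searched for the Gli consensus GACCACCCA on both strands. Windows were found for 6 of the 9 genes, Ptch1, Smo, Hhip, Cdon, Gli2 and Gli3, and not for Shh, Boc and Gli1. Of these 6 windows 0 held the 9 letters, and 0 held them with at most 1 mismatch. Over all 32851 windows of the table, 0.253% held an exact match, 6.74% a match with at most 1 mismatch and 58.3% a match with at most 2. The 250 bases upstream of both starts are shown 5′ to 3′ because these are the member targets with a window. Capitals mark the stretch closest to the consensus, which differs from it at 2 positions in Hhip (plus strand of the window) and at 3 in Ptch1 (minus strand of the window, the first of 4 equally close stretches). The Hhip window spans chr8:80058009-80058258 and the Ptch1 window chr13:63565736-63565985, both on the minus strand of the genome. The Ptch1 window lies inside the span of the gene in GENCODE M21, whose longest transcripts start farther upstream.
Hhip: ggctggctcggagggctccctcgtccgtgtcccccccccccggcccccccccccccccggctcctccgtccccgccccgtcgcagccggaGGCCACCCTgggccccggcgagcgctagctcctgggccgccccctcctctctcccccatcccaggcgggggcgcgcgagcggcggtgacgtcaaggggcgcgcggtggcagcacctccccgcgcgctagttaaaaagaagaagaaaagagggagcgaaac
Ptch1: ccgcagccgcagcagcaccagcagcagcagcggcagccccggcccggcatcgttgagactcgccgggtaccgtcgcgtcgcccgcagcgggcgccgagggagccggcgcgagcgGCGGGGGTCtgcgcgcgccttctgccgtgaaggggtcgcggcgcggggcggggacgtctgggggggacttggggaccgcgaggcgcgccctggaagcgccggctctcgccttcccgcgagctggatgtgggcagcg
Both windows are rich in G and C, at 73.7% for Hhip and 76.3% for Ptch1 over the 300 bases against a median of 52.7% over all windows, with 30 and 47 CpG dinucleotides against a median of 7. The absence of a match says only that these letters are not in these windows.

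Smo, the transmembrane transducer of the signal, lies at chr6:29735503-29761365 on the plus strand. It was at 248.7, 242.1 and 261.7 CPM in heterozygous and 250, 256 and 271 CPM in homozygous E9.0 libraries, and at 236, 213 and 238 CPM and 246, 231 and 215 CPM at E9.5. The groups overlapped at both stages. The log2 fold changes were 0.04 ± 0.07 at E9.0 and 0.01 ± 0.06 at E9.5 (edgeR adjusted p 0.819 and 0.973), with 95% intervals of −0.09 to 0.18 and −0.13 to 0.15. When heterozygous E9.5 replicate 2 was left out the E9.5 difference was −0.04 ± 0.07 (edgeR adjusted p 0.947).

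The co-receptors lay on the other side. Cdon, an immunoglobulin superfamily protein that presents Shh to Ptch1, lies at chr9:35421128-35507652 on the plus strand. It was at 132, 141 and 137 CPM in heterozygous and 137, 118 and 117 CPM in homozygous E9.0 libraries, which overlapped in a single homozygous library (log2 fold change −0.15 ± 0.09, edgeR adjusted p 0.503). At E9.5 it was at 153, 191 and 157 CPM in heterozygous and 119, 145 and 128 CPM in homozygous libraries, all lower. The E9.5 difference of −0.35 ± 0.09 lay just outside the threshold (edgeR adjusted p 0.0579). It was called without heterozygous replicate 1 (−0.41, edgeR adjusted p 0.0445) and without homozygous replicate 2 (−0.43, edgeR adjusted p 0.0483), and it was −0.25 ± 0.08 without heterozygous replicate 2 (edgeR adjusted p 0.236). Averaged over both stages, Cdon fell by 0.25 ± 0.06 on the log2 scale (16.0% lower; edgeR adjusted p 0.0459), the single genotype call among the 9 genes. This call was kept in 4 of 10 processing alternatives, the others being upper-quartile factors, total counts with or without Rn45s, limma-voom, a mean of at least 50 counts and dispersion without robust estimation, over which the difference ran from −0.25 to −0.16 (adjusted p 0.0535 to 0.613). It was kept in 3 of 12 fits that left out 1 library and was lost without heterozygous E9.5 replicate 2 (−0.20 ± 0.06, edgeR adjusted p 0.0919).

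Boc, the paralogue of Cdon and likewise a co-receptor, lies at chr16:44485049-44558897 on the minus strand. It was at 41.8, 39.1 and 34.3 CPM in heterozygous and 38.6, 33.2 and 34.0 CPM in homozygous E9.0 libraries (log2 fold change −0.12 ± 0.14, edgeR adjusted p 0.767). At E9.5 it was at 41.5, 63.0 and 43.3 CPM in heterozygous and 37.2, 37.3 and 40.7 CPM in homozygous libraries. The groups did not overlap, but the difference of −0.36 ± 0.13 (edgeR adjusted p 0.242) became −0.14 ± 0.09 without heterozygous replicate 2 (edgeR adjusted p 0.689). Gas1, the third co-receptor and outside the 9 genes, was at 188, 186 and 170 CPM in heterozygous and 139, 140 and 139 CPM in homozygous E9.5 libraries. All homozygous values were lower, and Gas1 fell by 0.38 ± 0.06 in log2 (edgeR adjusted p 0.00408); without heterozygous replicate 2 it fell by 0.36 ± 0.07 (edgeR adjusted p 0.0189). At E9.0 its difference was −0.07 ± 0.06 (edgeR adjusted p 0.657), and the difference between stages was not called (−0.31 ± 0.09, edgeR adjusted p 0.276).

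Gli1, the transcription factor that is switched on by the pathway and amplifies it, lies at chr10:127329882-127341974 on the minus strand and overlaps Arhgap9, which had 6 to 22 counts, on the opposite strand. Its level was 27.4, 24.9 and 17.8 CPM in heterozygous and 24.2, 22.2 and 23.0 CPM in homozygous E9.0 libraries. At E9.5 it was at 16.0, 13.2 and 19.0 CPM in heterozygous and 19.3, 16.5 and 17.4 CPM in homozygous libraries. The groups overlapped at both stages. The E9.0 difference was −0.01 ± 0.15 in log2 (edgeR adjusted p 0.990). The E9.5 difference was 0.14 ± 0.14 (edgeR adjusted p 0.772), or 0.02 ± 0.14 without heterozygous E9.5 replicate 2. Unlike for Ptch1 and Hhip, the E9.5 libraries of both genotypes were interleaved.

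Gli2, the main activator, lies at chr1:118834132-119053619 on the minus strand. It was at 62.4, 41.4 and 40.1 CPM in heterozygous and 44.4, 39.3 and 44.6 CPM in homozygous E9.0 libraries, and at 36.8, 41.4 and 37.2 CPM and 35.3, 39.5 and 37.2 CPM at E9.5. Heterozygous E9.0 replicate 1, the library with the most Rn45s, was above the rest. The log2 fold changes were −0.16 ± 0.14 and −0.04 ± 0.13 (edgeR adjusted p 0.658 and 0.945), and that at E9.0 was 0.07 without that library. The E9.5 difference was 0.02 ± 0.14 without heterozygous E9.5 replicate 2. Gli3, the main repressor, lies at chr13:15463235-15730026 on the plus strand. It was at 264, 238 and 237 CPM in heterozygous and 234, 196 and 230 CPM in homozygous E9.0 libraries, where the groups did not overlap (−0.16 ± 0.12, edgeR adjusted p 0.571). At E9.5 it was at 166, 230 and 173 CPM and at 151, 182 and 177 CPM, which overlapped (−0.16 ± 0.11, edgeR adjusted p 0.640), and without heterozygous replicate 2 the difference was 0.01 ± 0.09.

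**Figure D2:**
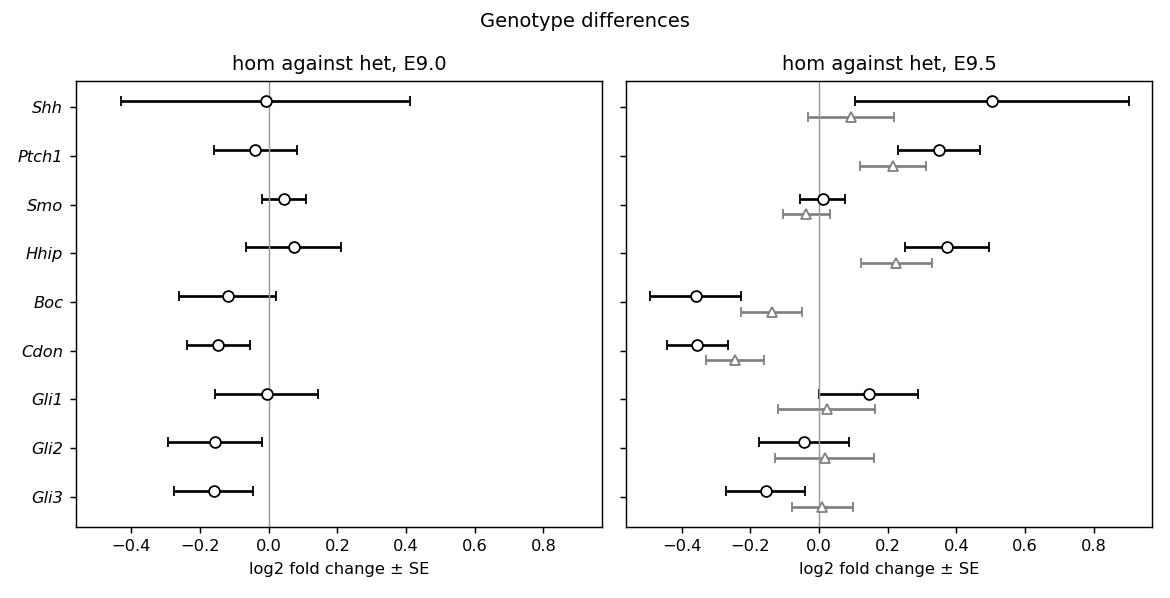
Log2 fold change of homozygous against heterozygous libraries (x axis, ± SE from edgeR) for each gene (y axis) at E9.0 and at E9.5; black circles use all 12 libraries, grey triangles (E9.5 panel) leave out heterozygous E9.5 replicate 2, and open symbols did not pass the threshold. At E9.5 Ptch1 and Hhip lie to the right and Boc and Cdon to the left, and the values of these named genes without that library lie closer to 0.

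In counts, 0 of the 9 genes were called between genotypes at E9.0, where 0.587% of all 14810 tested genes were, and 0 of 9 at E9.5, where 1.89% were (edgeR adjusted p under 0.05). DESeq2 called 0 and 1 of them, and limma-voom 0 and 0, the 1 being Cdon. Unadjusted p-values under 0.05 were reached by 0 of 9 at E9.0 and by 4 of 9 at E9.5, against 13.3% and 13.4% of all genes. The same 4 genes, Ptch1, Hhip, Boc and Cdon, had groups without overlap at E9.5, as did 20.9% of all tested genes. The homozygous group was the higher for 2 of them (11.4% of all genes) and the lower for 2 (9.47%). Without heterozygous E9.5 replicate 2 the log2 differences of Ptch1, Hhip, Boc and Cdon were smaller in size, at 0.22, 0.22, −0.14 and −0.25. In that fit 0 of 9 were called, so the 4 of 9 above rested in part on 1 library. Groups did not overlap for 1 of 9 at E9.0, against 17.3% of all. On the average of both stages 1 of 9 was called, against 2.96% of all genes (1.14% lower in homozygous), and for the difference between stages 0 of 9 were, against 0.0675%. The 9 genes had a median log2 fold change of −0.04 at the earlier and 0.01 at the later stage, and all genes had −0.0043 and −0.0026. When libraries were scaled by total counts alone, all tested genes at E9.0 had a median of 0.19, and there the values of Shh, Ptch1, Gli1, Gli2, Gli3, Boc and Cdon became positive. No member was called at E9.0 under any of the alternatives tried.

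The second comparison followed development from E9.0 to E9.5, and here several pathway genes moved. In heterozygous embryos Ptch1 fell from 168 ± 20.3 to 91.9 ± 17.5 CPM (SD, n = 3 each), without overlap, by 0.87 ± 0.12 in log2 (45.3% lower; edgeR adjusted p 1.13e-04). Without heterozygous E9.5 replicate 2 it fell by 0.73 ± 0.10 (edgeR adjusted p 3.9e-05). In homozygous embryos it fell from 164 ± 13.0 to 117 ± 5.10 CPM, by 0.48 ± 0.12 (28.4% lower; edgeR adjusted p 0.00718). Leaving out any 1 of the 6 libraries kept the call in either genotype. Whether the fall differed between genotypes is the same test as the stage dependence of the genotype difference, which was not called.

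Gli1 fell from 23.4 ± 5.0 to 16.1 ± 2.90 CPM in heterozygous embryos (log2 fold change −0.53 ± 0.15, edgeR adjusted p 0.0109), where the lowest E9.0 library, at 17.8 CPM, lay below the highest E9.5 library, at 19.0 CPM. The call was lost without heterozygous E9.0 replicate 1 (−0.41, edgeR adjusted p 0.0558) and was −0.40 ± 0.14 without E9.5 replicate 2 (edgeR adjusted p 0.0423). In homozygous embryos Gli1 was at 23.1 ± 1.03 and 17.7 ± 1.45 CPM without overlap, a difference of −0.38 ± 0.15 just outside the threshold (edgeR adjusted p 0.0572). It was called when heterozygous E9.5 replicate 2 was left out of the shared spread (edgeR adjusted p 0.0341). Gli3 fell in both genotypes, from 246 ± 15.1 to 189 ± 35.0 CPM in heterozygous embryos (−0.38 ± 0.11, edgeR adjusted p 0.0199) and from 220 ± 20.9 to 170 ± 16.3 CPM in homozygous embryos (−0.37 ± 0.12, edgeR adjusted p 0.0216). Without heterozygous E9.5 replicate 2, which had a high Gli3 level, the heterozygous difference was −0.54 ± 0.09 (edgeR adjusted p 3.03e-04). Each Gli3 call was lost in 3 of 6 fits that left out 1 library: without heterozygous E9.0 replicate 1 or E9.5 replicate 1 or 3 (highest edgeR adjusted p 0.0909), and without homozygous E9.0 replicate 1 or 3 or E9.5 replicate 1 (highest 0.0878).

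Hhip, which like Ptch1 and Gli1 is a target, went the other way. In homozygous embryos it rose from 9.22 ± 0.924 to 12.9 ± 0.438 CPM (0.49 ± 0.13, 40.1% higher; edgeR adjusted p 0.00811), without overlap and in all 6 fits that left out 1 library. In heterozygous embryos it was at 8.74 ± 0.416 and 9.99 ± 1.88 CPM (0.19 ± 0.13, edgeR adjusted p 0.283), and without E9.5 replicate 2 it rose by 0.34 ± 0.11 (edgeR adjusted p 0.0256). The pathway targets among the members therefore did not move together over the stages, with Ptch1 falling in both genotypes and Hhip at higher mean levels in both.

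Cdon rose in heterozygous embryos from 137 ± 4.52 to 167 ± 20.5 CPM (0.28 ± 0.09, edgeR adjusted p 0.0223), but without E9.5 replicate 2 the difference was 0.18 ± 0.08 (edgeR adjusted p 0.121), and without E9.0 replicate 1 or 3 the adjusted p was 0.0724 and 0.0546. In homozygous embryos it was at 124 ± 11.2 and 131 ± 13.2 CPM (0.08 ± 0.09, edgeR adjusted p 0.541). Boc was at 38.4 ± 3.83 and 49.3 ± 11.9 CPM in heterozygous embryos (0.37 ± 0.14, edgeR adjusted p 0.0510), a difference of 0.15 ± 0.09 without replicate 2 (edgeR adjusted p 0.233). It was called without heterozygous E9.5 replicate 1 or 3 (edgeR adjusted p 0.0139 and 0.0296). Shh, Smo and Gli2 were not called in either genotype. Their log2 differences were −0.43 ± 0.41, −0.13 ± 0.06 and −0.31 ± 0.13 in heterozygous and 0.08 ± 0.41, −0.17 ± 0.07 and −0.19 ± 0.13 in homozygous embryos, and those of Shh and Smo in heterozygous embryos were −0.02 ± 0.13 and −0.08 ± 0.07 without replicate 2. The Gli2 difference in heterozygous embryos was −0.08 without E9.0 replicate 1, its highest library (edgeR adjusted p 0.477), it was called without E9.0 replicate 2 or 3 (−0.40 and −0.42, edgeR adjusted p 0.0436 and 0.0245), and with total counts only it was 0.10 (adjusted p 0.507). Smo was called in homozygous embryos without E9.5 replicate 1 (edgeR adjusted p 0.0320).

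Stage moved much of the transcriptome, so these counts were close to the background. In heterozygous embryos 4 of 9 genes were called, against 35.2% of all tested genes, and in homozygous embryos 3 of 9, against 35.4%. By direction these were 1 higher and 3 lower, against 19.2% and 16% of all genes, in heterozygous embryos, and 1 higher and 2 lower, against 19.6% and 15.8%, in homozygous ones. Without heterozygous E9.5 replicate 2 the heterozygous count was again 4, with Hhip in place of Cdon, against 32.5% of all genes. Groups did not overlap for 4 of 9 in heterozygous and 5 of 9 in homozygous embryos, against 47.7% and 48.2%. Of these 1 was higher and 3 were lower in heterozygous embryos (25.2% and 22.5% of all genes), and 1 higher and 4 lower in homozygous ones (26% and 22.1%). The tissue held by the libraries also differed between stages: the summed level of 7 heart muscle markers was 64.4 to 330 CPM at E9.0 and 1883 to 3008 CPM at E9.5, and that of 6 primitive erythroid markers 535 to 1168 and 2782 to 5187 CPM. The summed level of 6 ventral midline and floor plate markers ran from 189 to 206 CPM at E9.0 and from 113 to 181 CPM at E9.5. Migrating neural crest markers were at 260 to 334 CPM in sum at E9.0 and 168 to 207 CPM at E9.5, notochord markers at 11.0 to 12.9 and 8.77 to 10.6 CPM, and cranial ganglion and placode markers at 89.2 to 104 and 116 to 132 CPM. Their part in the stage differences was not tested. When libraries were scaled by total counts alone, all tested genes had a median of 0.38 in heterozygous and 0.18 in homozygous embryos, and there Gli3 was at 0.00188 in heterozygous embryos (adjusted p 0.992) while Ptch1 fell by 0.48 there and, in homozygous embryos, was at −0.31 (adjusted p 0.133).

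**Figure D3:**
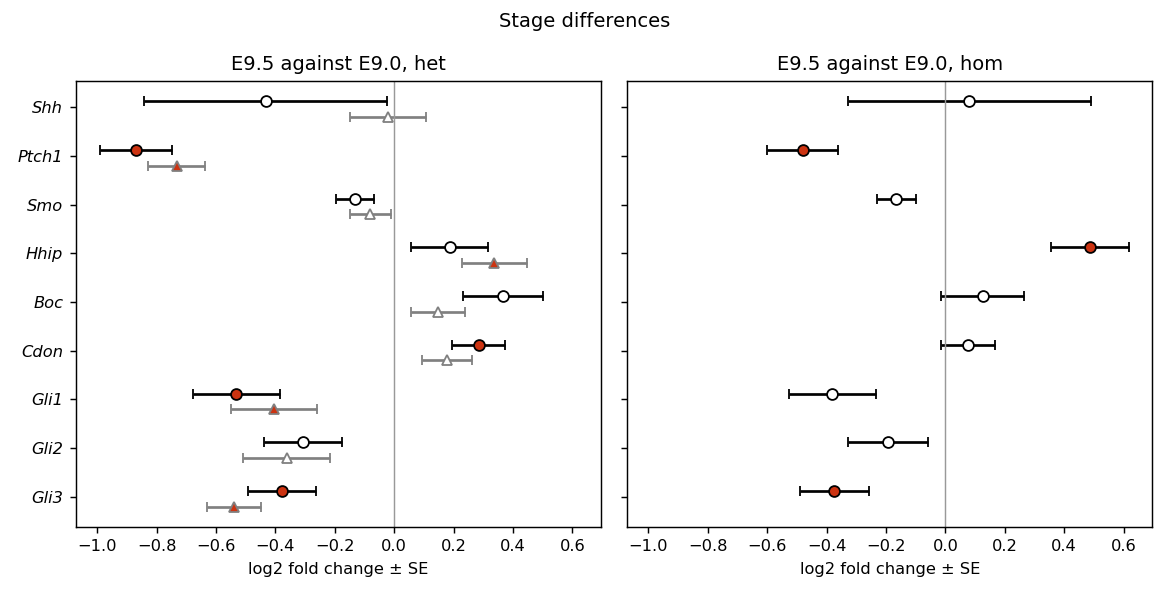
Log2 fold change of E9.5 against E9.0 libraries (x axis, ± SE from edgeR) for each gene (y axis) in heterozygous and in homozygous embryos; circles use all 12 libraries, triangles (heterozygous panel) leave out heterozygous E9.5 replicate 2, and filled red symbols passed the threshold. Ptch1 and Gli3 are filled on the left in both genotypes, and Hhip is filled on the right in homozygous embryos at 0.49.

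Further genes of the pathway, its targets and dorsal neural tube genes were read from lists of 66 genes, of which 65 were tested, Ihh being left out with 2 to 9 counts in a library. At E9.0 0 of the 65 were called between genotypes, against 0.587% of all tested genes. At E9.5 5 were called, against 1.89% of all, and these 5 were lower in homozygous libraries: Gas1 and the dorsal neural tube genes Msx1, Pax3, Pax7 and Wnt1. Thus 4 of the 5 came from the list of 9 dorsal neural tube genes. Because the lists were chosen with earlier results of these data known, these counts are descriptions and not a test of the pathway. Pax3 fell from 33.7 to 21.6 CPM (−0.65 ± 0.11, edgeR adjusted p 0.00545), Pax7 from 14.6 to 8.19 CPM (−0.84 ± 0.17, edgeR adjusted p 0.0194), Wnt1 from 7.37 to 3.86 CPM (−0.93 ± 0.17, edgeR adjusted p 0.00913) and Msx1 from 47.8 to 32.5 CPM (−0.56 ± 0.07, edgeR adjusted p 4.95e-04). Pax7 lost its call without heterozygous E9.5 replicate 2 or homozygous E9.5 replicate 1 or 3 (highest edgeR adjusted p 0.0789). Gas1, Msx1, Pax3 and Wnt1 kept theirs when any E9.5 library was left out, and without heterozygous replicate 2 the differences of Msx1, Pax3 and Wnt1 were −0.60, −0.46 and −0.77. With total counts only the calls of Gas1 and Msx1 were lost (adjusted p 0.408 and 0.0635) at differences of −0.38 and −0.56, and in a fit of only the groups compared those of Pax3 and Pax7 (0.0649 and 0.0785) at −0.65 and −0.84, so the sizes did not move with the calls. The same 5 genes were called on the average of both stages, against 2.96% of all tested genes. There Msx1 was lost in 5 of 12 fits that left out 1 library. With total counts only the averaged differences of Gas1, Msx1 and Pax3 went from −0.22, −0.22 and −0.42 to −0.13, −0.13 and −0.33. These 3 calls were then lost (edgeR adjusted p 0.665, 0.667 and 0.143). Markers of other tissues moved at E9.5. The 8 midbrain-hindbrain boundary markers were at 56.8 to 109 CPM in sum in heterozygous and 19.9 to 24.2 CPM in homozygous libraries. The 15 facial ectomesenchyme markers were at 299 to 472 and 270 to 313 CPM. Wnt1 is itself one of the boundary markers and Msx1 one of the ectomesenchyme markers. The part of the other markers in the differences of Pax3, Pax7, Wnt1 and Msx1 was not tested.

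Of the 8 ventral neural tube targets, 7 were higher in homozygous E9.5 libraries and 0 were called, with a median log2 fold change of 0.39. Leaving out heterozygous E9.5 replicate 2, 6 were higher and 0 were called, with a median of 0.23. Nkx6-1, a homeobox factor of ventral progenitors, had a difference of 0.89 ± 0.24 without overlap between groups (edgeR adjusted p 0.0969). Of the 6 facial mesenchyme targets, which are forkhead genes induced by Shh in the face, 5 were higher and 0 were called, with a median of 0.73, and without that library 4 were higher and 0 were called, with a median of 0.44. Foxc2 was at 0.81 ± 0.23 (edgeR adjusted p 0.114) and Foxf2 at 0.67 ± 0.23 (edgeR adjusted p 0.193), both without overlap. Without heterozygous E9.5 replicate 2 these differences were 0.62 for Nkx6-1, 0.60 for Foxc2 and 0.37 for Foxf2. These 3 genes were chosen after their values were seen. At E9.5 the summed endothelial markers were at 148 to 214 CPM in heterozygous and 279 to 313 CPM in homozygous libraries, and the summed ventral midline markers at 113 to 146 and 146 to 181 CPM. Of the 8 endothelial markers 8 were higher and 6 were called, with a median log2 fold change of 0.64. Of the 6 ventral midline markers 6 were higher and 0 were called. Over all tested genes 1.89% were called. The 10 markers of pharyngeal and foregut endoderm and other epithelium were at 316 to 367 and 388 to 468 CPM in sum, with Epcam called (0.31 ± 0.07, edgeR adjusted p 0.0400). The 7 markers of ventral forebrain and eye were at 45.7 to 51.9 and 55.8 to 76.3 CPM, with Rax called (0.76 ± 0.16, edgeR adjusted p 0.0178). Foxa1, Foxa2 and Nkx2-9 are on both the ventral midline list and the ventral target list, and Nkx2-1 on both the ventral forebrain list and the target list, so these sums partly restate the targets. The part of the other markers in the differences of the ventral and facial targets was not tested. Of 15 cytoplasmic and ciliary regulators, 13 ciliary transport genes, 6 tested genes of ligand release and 4 growth targets, 0 were called at either stage, with medians between −0.04 and 0.16 at E9.5.

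Between stages in heterozygous embryos, 26 of the 65 wider pathway genes were called, 10 higher and 16 lower at E9.5, against 35.2% of all genes. In homozygous embryos 25 were called, 13 higher and 12 lower, against 35.4% of all genes. The ventral neural tube targets Nkx2-9 (−1.91 ± 0.27, edgeR adjusted p 1.29e-04) and Nkx6-1 (−1.30 ± 0.25, edgeR adjusted p 0.00138) fell, as did Foxa1 and Foxa2, and the mesenchymal target Foxc2 fell by 1.03 ± 0.23 (edgeR adjusted p 0.00508). Scube3, a secreted protein of the family that helps release the ligand, rose by 1.21 ± 0.07 (edgeR adjusted p 9.08e-09), while its relative Scube2 fell by 0.79 ± 0.13 (edgeR adjusted p 3.01e-04). Dhh, a second Hedgehog ligand, rose by 1.44 ± 0.38 (edgeR adjusted p 0.00742) from a mean of 0.234 CPM (3 to 5 counts in a library) to 0.644 CPM (19 to 23 counts). Disp1, which exports the ligand, fell by 0.30 ± 0.11 (edgeR adjusted p 0.0419), a call lost without heterozygous E9.5 replicate 2 (−0.27, adjusted p 0.101). Sufu, which restrains the Gli factors, fell by 0.49 ± 0.06 (edgeR adjusted p 2.81e-05), Tulp3, a ciliary trafficking protein, fell by 0.51 ± 0.10 (edgeR adjusted p 6.25e-04) and Kif3b, a ciliary motor subunit, fell by 0.26 ± 0.07 (edgeR adjusted p 0.00598).

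Further genes were called in both directions. Gas1 rose by 0.67 ± 0.06 (edgeR adjusted p 7.82e-07), in the same direction as Cdon. The kinase gene Stk36 rose by 0.37 ± 0.13 (edgeR adjusted p 0.0336), a call lost without heterozygous E9.5 replicate 2 (0.32, adjusted p 0.0933), and the ubiquitin ligase gene Btrc rose by 0.24 ± 0.07 (edgeR adjusted p 0.0130). Of the growth targets, Mycn fell by 0.33 ± 0.08 (edgeR adjusted p 0.00468) and Ccnd2 by 0.18 ± 0.06 (edgeR adjusted p 0.0166). Of the dorsal neural tube genes, Gdf7 rose by 0.68 ± 0.17 (edgeR adjusted p 0.00639) and Wnt3a by 0.61 ± 0.16 (edgeR adjusted p 0.00898), while Wnt1 fell by 0.71 ± 0.16 (edgeR adjusted p 0.00282) and Pax6 by 0.41 ± 0.09 (edgeR adjusted p 0.00162). With total counts only the Wnt1 difference was −0.31 and its call was lost (edgeR adjusted p 0.109). Msx1, Msx2 and Prkaca also rose, by 0.60, 0.59 and 0.19, and Kif7 and Evc2 fell by 0.30 and 0.25. Msx1 and Msx2 are also among the 15 facial ectomesenchyme markers, which had a median log2 fold change of 0.59. Of these markers 11 were higher and 4 lower, and 8 were called higher, against 19.2% of all tested genes. The part of the other markers in the rises of Gas1, Msx1 and Msx2 was not tested. Without heterozygous E9.5 replicate 2 the calls of Disp1, Stk36, Evc2 and Prkaca were lost (highest adjusted p 0.101). The other 22 of the 26 were called without it, and Wnt3a was then at 0.37 in place of 0.61. Foxf2 gained a call, which gave 23 in all. In homozygous embryos that fit called 28 of the wider genes, with Foxd2 and Nkx6-2 among the gained calls. Of the genes named here, Nkx6-1 (−0.36), Foxa2 (−0.50), Foxc2 (−0.40), Wnt3a (0.24) and Msx1 (−0.07) were among those not called between stages in homozygous embryos, although Foxa2 was called there (−0.50, edgeR adjusted p 0.0137) when heterozygous E9.5 replicate 2 was left out of the shared fit. Of the 65 genes, 1, Msx1, was called for the difference of the stage change between genotypes, against 0.0675% of all tested genes.

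**Figure D4:**
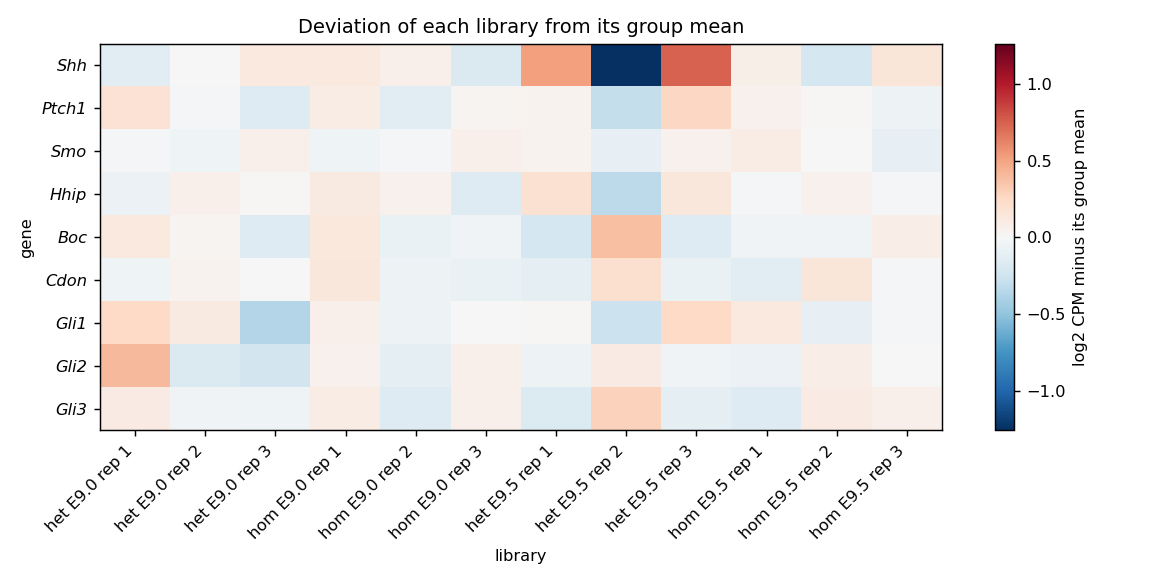
Deviation of each library (x axis) from the mean of its group in log2 CPM for each gene (y axis), red above and blue below. The darkest cell is Shh in heterozygous E9.5 replicate 2, at −1.26, and in the same column Boc is at 0.38 and Gli3 at 0.29.

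Deviations from the 4 group means were then compared among the 9 genes over the 12 libraries, as a description. Ptch1 and Gli1 deviated together, with Pearson's r 0.87, and with 0.83 over the 11 libraries without heterozygous E9.5 replicate 2. A high r over these 11 was not particular to this pair: Ptch1 and Gli2 had 0.75 and Boc and Gli1 0.75, against 0.32 and −0.11 over 12. Shh and Hhip had r 0.87 over 12 libraries but 0.33 over 11, and Shh and Boc −0.81 and 0.07, so these relations rested on that library. Outside it, Shh and its targets Ptch1 and Gli1 had r −0.23 and −0.08. All genes of a library share its depth and its tissue make-up, and the 12 deviations hold 8 degrees of freedom. By the same measure, among 10642 genes with a mean of at least 5 CPM, those most like Gli1 were Flywch1 (0.96), Scara3 (0.95) and Rtf1 (0.95), which stayed between 0.94 and 0.96 over 11 libraries. Those most like Shh were Fstl1, Ddr2 and Cald1 (0.97, 0.97 and 0.96), at 0.56, 0.89 and 0.39 over 11 libraries.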

How the data were processed

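The authors deposited raw counts per gene symbol for 12 libraries, which are whole numbers without normalization. Per the submitters' processing notes, cutadapt, STAR, featureCounts and MultiQC were used with the mm10 build; versions, annotation and strand setting are not given in the sources used here, so antisense and overlapping genes are uncertain. The tests were run with edgeR 4.0.16 under R 4.3.3: filterByExpr kept 14810 of 24421 genes, libraries were scaled with TMM, and the quasi-likelihood F test (robust, two-sided) used 1 model of 4 group means over all 12 libraries. Benjamini-Hochberg adjustment ran over all tested genes, with a threshold of 0.05. SE was derived from the log2 fold change and its F statistic. CPM is relative to TMM-scaled library size, and lengths are merged exons of GENCODE M21 (GRCm38). DESeq2 1.42.0 and limma 3.58.1 (voom) were alternatives. The edgeR fit was tested on simulated counts for the genotype comparison at E9.5 only, and these counts held no outlying library. The other comparisons, DESeq2 and limma-voom were not tested in this way.

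The 9 genes, the wider lists, the marker lists and the tests were chosen with earlier results of these data known. Named besides the 9 genes are list members called in a genotype comparison or in the interaction, up to 2 rises and 2 falls per list between stages in heterozygous embryos, and the 3 genes most like Shh and Gli1; further list members named beside them were chosen after their values were seen. The depth of 13914543 to 31172708 counts gave each of the 9 genes at least 113 counts in a library. The same replicate number in 2 groups marks no stated litter or day.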

Additional observations from a re-analysis of the deposited data

Results flagged for a closer look

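The genotype difference of Msx1, a homeobox gene of dorsal neural tube and facial mesenchyme that is known to respond to BMP signals, depended on the stage. It was 0.11 ± 0.07 on the log2 scale at E9.0 and −0.56 ± 0.07 at E9.5, and the difference between the stages was −0.67 ± 0.10 (edgeR adjusted p 0.0198). It was kept in 7 of 12 fits that left out 1 library, with adjusted p up to 0.0916. Msx1 is also among the 15 facial ectomesenchyme markers. Of these, 15 had a negative difference between stages and 4 were called (Barx1, Dlx1, Lhx8 and Msx1), against 0.0675% of all tested genes. The part of the other markers in the Msx1 result was not tested. With total counts only the Msx1 call was lost (−0.87, adjusted p 0.136). None of the 9 Hedgehog genes was called for such a difference by edgeR, where their smallest adjusted p was 0.548 and 1 of 9, Ptch1, had an unadjusted p under 0.05 (0.0390), against 8.6% of all tested genes.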

How the results depend on the processing

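Ptch1 fell between stages in every leave-one-library-out fit, and Hhip rose in homozygous embryos in each of them; the other calls on the 9 genes moved with single libraries as given beside them, and some with the processing. Between stages in heterozygous embryos Gli1 was at −0.14 with total counts only (adjusted p 0.460), Gli3 lost its call with total counts without Rn45s (0.0637) and without the filter (0.0581), and Boc was called in 7 of 11 alternatives, and Hhip with total counts only (0.0140). In homozygous embryos Gli3 lost its call with total counts only (0.377) and without the filter (0.0742), and Ptch1 with total counts only (0.133). Smo was called there with RLE factors (0.0421), upper-quartile factors (0.0486) and DESeq2 (0.0297), and Gli1 with DESeq2 (0.0340) and with only the groups compared (0.00557). The count of genes called at E9.0 (87) was 216 with DESeq2, 51 with limma-voom, and 34 and 166 at adjusted p under 0.01 and under 0.1, and 38 to 86 when 1 library was left out. At E9.5 (280) it was 448 with DESeq2, 123 with total counts only, and 81 and 465 at these thresholds, and 133 to 252. On the average of both stages (439) it was 159 and 759 at these thresholds, and 246 to 411. The stage-dependent count (10) was 76 with DESeq2, 5 with limma-voom and 1 at adjusted p under 0.01, and 1 to 16. Stage in heterozygous embryos gave 3325 at 0.01 and 4084 to 4890, and in homozygous embryos 3387 at 0.01, 3325 with total counts only and 4060 to 4759.

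Of the 9 genes, 0 to 1 were called at E9.5 in leave-one-out fits (Ptch1 or Cdon), and 1, Cdon, with DESeq2, without a filter on low counts and at adjusted p under 0.1. On the average the count was 0 with upper-quartile factors, total counts with or without Rn45s, limma-voom, a mean of at least 50 counts, without robust estimation and at 0.01, and 0 to 1 in leave-one-out fits. At E9.0 and for the stage dependence it was 0 to 0. Stage in heterozygous embryos gave 1 at 0.01 and 1 to 5, and in homozygous embryos 1 (Hhip) with total counts only, 5 with DESeq2 and at 0.1, and 2 to 3. Of the wider genes, the average gave 3 with total counts only and at 0.01, 8 with DESeq2, and 4 to 6; E9.5 gave 4 to 7 and E9.0 0 to 0; the stage dependence 0 with total counts only and at 0.01, 2 with DESeq2, and 0 to 1; stage 22 to 25 in heterozygous embryos, and 14 with total counts only, 15 at 0.01 and 18 to 25 in homozygous embryos. With total counts only, which moved the median of all genes by 0.38 between stages in heterozygous embryos, Gli3 changed sign there to 0.00188 and Eftud2 to 0.22.

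Same-numbered libraries of both genotypes had deviations correlated by 0.03 to 0.11, and not every library correlated best with its own number, so the numbers were not taken as pairs. With a replicate block within stage, 1 of the 9 genes (Cdon) was called at E9.5, 8 wider genes on the average, and 21 genes for the stage dependence. Boc and Gli2 were then also called between stages in heterozygous embryos (6 of 9 in all; adjusted p 0.0322 and 0.0316) and Gli1 in homozygous embryos (0.0264), and the Eftud2 call at E9.0 was lost (0.0545). Among the 9 genes, Hhip and Shh had as few as 113 and 165 counts in a library.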
